A study of Mus musculus with 34 samples.

Results

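Short cassette exons of 28 to 50 nt are the exons that lie just above the length of microexons, which the study took as exons of up to 27 nt. They were chosen by length alone from the table of alternative splicing events, and 6945 of the 160750 cassette exons in it had such a length, in 4526 host genes. The other cassette exons were 1840 microexons and 151965 exons longer than 50 nt. Only 2 of the 6945 overlapped each other.

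The 34 libraries of polyA+ RNA come from Neuro-2A (N2A) cells, a mouse neuroblastoma line, after 24 h of treatment in 0.4% DMSO. DMSO alone had 3 libraries (A, B and C), each of 4 inhibitors of histone deacetylases (HDACs) had 2, and each of 23 other compounds had 1. The study classed 17 compounds as activators and 10 as inhibitors of microexon splicing, from a luciferase reporter and from RT-PCR of selected exons. The activators were the HDAC inhibitors Vorinostat (2.5 µM), CI-994 (5 µM), BRD6688 (10 µM) and BRD4884 (10 µM), the kinase inhibitors A-443654 (250 nM, against AKT1), NVP-AEW-541 (1 µM, IGF1R), Trametinib (1 µM, MEK1 and MEK2), Crenolanib (2 µM, PDGFR), SCH-772984 (2 µM, ERK1 and ERK2) and GNF-5837 (500 nM, TRK), the 4 benzenesulfonamides RDR00572 (2.5 µM), RH01954 (2.5 µM), S02045 (5 µM) and BTB12021 (20 µM), and the drug-like molecules BTBS00065 (2.5 µM), SEW06315 (2.5 µM) and BTB13120, whose dose is not given in the sources used here. The inhibitors were 5-azacytidine (5 µM, against DNA methyltransferase), MK-1775 (2 µM, WEE1), AW00693 (5 µM), SPB00858 (20 µM), JFD00822 (5 µM), and at 6.7 µM each T5635931, T5758020, T5963258, T5985871 and the ChemBridge compound labelled OICR.24K.Dissimilar_18_P14. All groups come from 1 cell line, and where a compound had 1 library its change has no replicate check. The study calls the replicates of the HDAC inhibitors biological, whereas the labels give only letters. P-values for HDAC inhibitors against DMSO thus measure the spread between these libraries. Those for activators against inhibitors measure the spread between compounds, and related compounds within a class are not fully independent.

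A cassette exon can be included in the mature transcript or skipped, and its level is given as percent spliced in (PSI), the share of transcripts that contain it. Very short exons leave little room for splicing enhancers, so that their recognition depends strongly on the sequences of the flanking introns and on dedicated factors. In neurons the factors SRRM3 and SRRM4 promote the inclusion of microexons, many of which keep the reading frame and add a few residues to the surface of a protein.

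The sequences of 16 of these exons are shown because the results below turn on them. They run 5′ to 3′ on the strand of the gene, with the exon in capitals and 15 bases of each neighbouring exon of the spliced transcript in lower case. They were read from GENCODE transcripts, in which the exon was found by chromosome, strand, length and the lengths of its flanking introns, and the mm9 positions are given with each exon below.
Meaf6: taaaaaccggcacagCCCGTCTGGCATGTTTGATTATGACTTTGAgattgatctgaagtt
Arfgap1: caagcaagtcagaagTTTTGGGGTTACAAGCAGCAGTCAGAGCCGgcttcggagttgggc
Asph: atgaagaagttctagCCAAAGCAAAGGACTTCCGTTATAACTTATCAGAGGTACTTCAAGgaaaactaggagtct
Acbd5: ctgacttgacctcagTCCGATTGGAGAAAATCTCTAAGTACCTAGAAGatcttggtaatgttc
Epb4.1l3: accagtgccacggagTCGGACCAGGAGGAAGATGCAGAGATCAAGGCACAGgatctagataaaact
Zdhhc20: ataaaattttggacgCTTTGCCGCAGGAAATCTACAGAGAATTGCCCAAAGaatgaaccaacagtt
Spag9: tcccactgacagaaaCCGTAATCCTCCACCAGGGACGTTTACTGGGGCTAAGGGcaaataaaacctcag
Arhgap21: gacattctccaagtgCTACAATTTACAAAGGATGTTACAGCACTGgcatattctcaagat
Ptprf: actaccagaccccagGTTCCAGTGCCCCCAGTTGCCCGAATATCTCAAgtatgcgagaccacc
Dclk2: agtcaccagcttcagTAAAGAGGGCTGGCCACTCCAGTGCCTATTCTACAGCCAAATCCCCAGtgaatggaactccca
Mbnl1: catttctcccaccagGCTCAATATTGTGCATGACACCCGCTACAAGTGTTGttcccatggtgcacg
Fat1: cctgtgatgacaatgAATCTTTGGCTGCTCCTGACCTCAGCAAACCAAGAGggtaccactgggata
Ndrg3: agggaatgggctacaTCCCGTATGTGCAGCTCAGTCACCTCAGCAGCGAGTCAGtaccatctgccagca
Dnm1l: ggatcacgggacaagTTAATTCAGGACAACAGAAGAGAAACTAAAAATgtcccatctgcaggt
Myo18a: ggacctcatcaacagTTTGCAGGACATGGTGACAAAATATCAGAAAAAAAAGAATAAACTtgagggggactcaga
BC024814: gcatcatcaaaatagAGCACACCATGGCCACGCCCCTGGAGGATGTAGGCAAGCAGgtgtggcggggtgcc
The exons of the first 8 hosts had the largest differences between the classes, those of the next 3 changed with the HDAC inhibitors, and the last 5 were called with many compounds. All have a length that is a multiple of 3 except that of BC024814.

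The files gave a quality score for the coverage of each exon in each library, and an exon was taken as measured where that score was at least low. Of the 6945 exons, 3439 were measured in at least 1 library, 2876 in 2 or more DMSO libraries and 2269 in all 34. Between 2658 and 3022 exons were measured per library, on 837665 to 1895310 inclusion and exclusion reads, with a median of 142 to 312 reads per measured exon. No 2 libraries had identical reads in more than 0.837% of the exons. In DMSO, the neuronal genes Tubb3 (396 RPKM), Stmn2 (175) and Uchl1 (384) were high in the authors' merged value. Of the other neuronal genes listed, Gata3 was at 7.34 and Nefm at 0.01. The astrocyte, oligodendrocyte, myeloid and fibroblast genes Gfap, Aqp4, Mbp, Mog, Aif1, Ptprc, Col1a1 and Dcn were at 1.93 RPKM or less.

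Most of these short exons were constitutive in untreated N2A cells. Over the 2876 exons measured in DMSO, the median PSI was 99.2, with 1835 (63.8%) above 95 and 524 (18.2%) below 5. Only 325 (11.3%) lay between 10 and 90, the range in which an exon is clearly alternative. Microexons had a median of 17, with 23.5% between 10 and 90 and 26.6% above 95. Exons over 50 nt had a median of 100, with 5.16% between 10 and 90 and 82.9% above 95. The short exons thus lay between both, and they did so along their own length range as well. Of exons of 28 to 35 nt, 14.4% were between 10 and 90 and 53.4% above 95. The corresponding values were 13.6% and 61.2% at 36 to 42 nt, and 8.82% and 69.3% at 43 to 50 nt. These are descriptions of the exons of 3 libraries and carry no test.

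**Figure D1:**
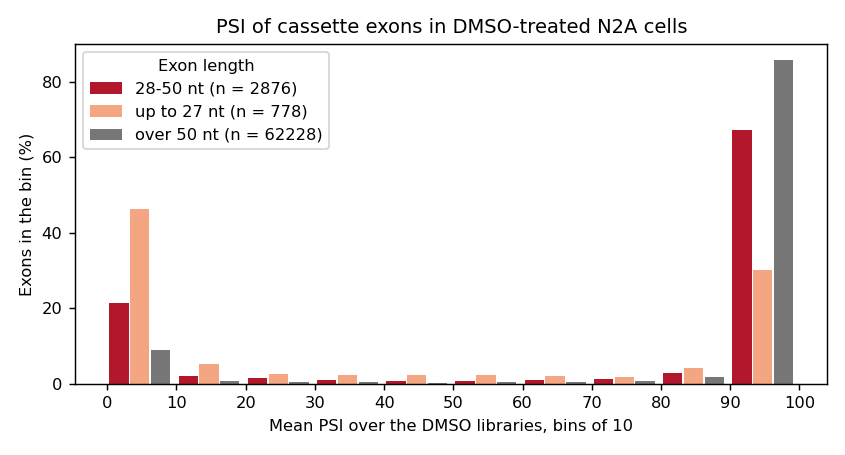
Mean PSI over the DMSO libraries (x axis, bins of 10) against the percent of exons in each bin (y axis), for cassette exons of 28-50 nt, of up to 27 nt and over 50 nt. The short exons pile up at both ends, with 63.8% above 95 PSI and 18.2% below 5, and their bars stand between those of the shorter and longer exons at either end.

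The DMSO libraries resembled each other in these exons. Over 2657 exons measured in all 3, the median SD of PSI was 0.318, and 4.57 was the 95th percentile. Between 10 and 90 PSI the spread was wider, with a median SD of 3.08 over 295 exons and 9.6 as the 95th percentile. In 63 of these (21.4%), the 3 libraries spanned 10 PSI or more, which is the smallest change called below.

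Reading frame and annotation varied with the DMSO level. Of the exons between 10 and 90 PSI, 59.7% had a length that is a multiple of 3, against 33.7% of those above 90 and 47.9% of those below 10. Among microexons between 10 and 90 PSI the share was 89.6%, and among exons over 50 nt it was 47.7%. A GENCODE exon was matched to 98.6% of the exons above 90 PSI, to 91.1% of those between 10 and 90, and to 46.2% of those below 10. Of the matched exons, 94.8%, 74% and 48.1%, respectively, were coding. Exons that N2A cells nearly always skipped were thus often without a transcript in that annotation. Over all 6945 exons, 5315 were matched, of which 4522 were coding, and 2965 had a length that is a multiple of 3.

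Most short exons were not called with any compound. Among the changes called from reads, increases outnumbered decreases over the activators, and decreases outnumbered increases over the inhibitors. A call compares a compound with DMSO and asks for a posterior probability above 0.95, from the inclusion and exclusion reads, and for a change of 10 PSI or more, in exons that also passed the score for read balance. Summed over the 17 activators, 717 of 38693 exon and compound pairs were called increased (1.85%), against 0.591% over all cassette exons, and 415 were called decreased (1.07%), against 0.658%. Over the 10 inhibitors, 117 of 22523 pairs were called increased (0.519%), against 0.317%, and 665 decreased (2.95%), against 1.23%. All compounds share the 3 DMSO libraries, and the study chose them for their effect on microexons, so that the directions of the classes are not independent of the exons tested by RT-PCR. In exons between 10 and 90 PSI in DMSO, the activators increased 15% of the pairs, against 10.9% over all cassette exons and 24.7% of microexons, and decreased 5.62%, against 6.62% and 3.03%. The inhibitors decreased 15.8% of such pairs, against 11.4% over all cassette exons and 31.2% of microexons, and increased 3.7%, against 5.35% and 1.1%. Of 2429 exons tested with at least 1 compound, 473 were called with 1 or more (19.5%, against 11.1% of all cassette exons), and 148 with 5 or more (6.09%, against 2.5%). Among exons between 10 and 90 PSI in DMSO, 85.6% of the short exons and 85.7% of all cassette exons were called with 1 or more, and 46.8% and 39.7% with 5 or more.

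**Figure D2:**
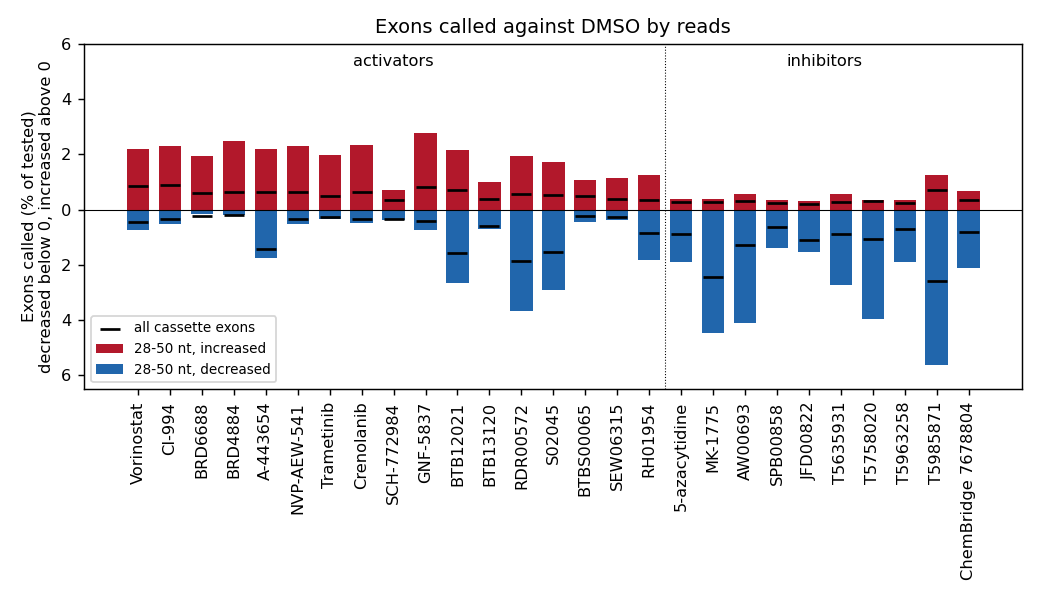
Percent of tested exons called increased (red, above 0) or decreased (blue, below 0) against DMSO for each compound, with black marks for all cassette exons. Bars for 28-50 nt exons reach 2.78% increased with GNF-5837 and 5.62% decreased with T5985871, and the benzenesulfonamides BTB12021, RDR00572, S02045 and RH01954 have both kinds of change.

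The number of short exons called differed widely between compounds. With CI-994, 53 of 2289 were called increased (background over all cassette exons 0.907%) and 12 decreased (0.347%). With Trametinib 45 of 2289 increased (0.498%) and 8 decreased (0.258%). RDR00572 had both, with 43 of 2208 increased (0.556%) and 81 decreased (1.85%). Among the inhibitors, AW00693 had 93 of 2264 decreased (1.27%) and 13 increased (0.327%), and MK-1775 had 102 of 2279 decreased (2.44%) and 9 increased (0.259%). T5985871 had the highest number decreased, 119 of 2118 (2.59%), with 27 increased (0.711%). The other 3 benzenesulfonamides also had both. BTB12021 had 59 of 2223 decreased (1.57%) and 48 increased (0.727%), S02045 had 66 of 2270 decreased (1.53%) and 39 increased (0.543%), and RH01954 had 41 of 2256 decreased (0.833%) and 28 increased (0.364%). A-443654 was close to RH01954 in the number decreased, at 40 of 2294 (1.44%), but had more increased, at 50 (0.629%). Over all cassette exons, these 5 compounds decreased 0.833% to 1.85%, against 0.204% to 0.598% for the other 12 activators. RDR00572 and RH01954 were used at the same dose, and the other 2 at higher doses. SCH-772984 had 17 of 2351 increased (0.343%) and 9 decreased (0.343%), and GNF-5837 had 61 of 2195 increased (0.83%) and 16 decreased (0.399%).

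The direct comparison of the classes set the 17 activators against the 10 inhibitors, with each compound as a single value, and did not use the DMSO libraries. It asked which short exons differ between compounds that raise and compounds that lower microexon inclusion. Of 983 exons tested, 60 differed in limma at an adjusted p below 0.05 and a difference of at least 10 PSI (6.1%), against 1.83% of the 17247 cassette exons tested (315 exons). This background was not matched for the DMSO level. Between 10 and 90 PSI in DMSO lay 54 of the 60 and 251 of the 983. That range held 11.3% of the short exons measured in DMSO and 5.65% of all cassette exons. Of the 60, 59 were higher with activators and only that of Zfp788 was lower. Over all cassette exons tested, 297 were higher and 18 lower, so this direction is not particular to the short exons. The median difference over the 983 exons was 0.818 PSI, against 0.483 over all exons tested. The 59 differed by 10.1 to 33.3 PSI, with a median of 14.3. Without T5985871, T5963258, T5758020, T5635931 and AW00693, 17 exons were called, and the share over all cassette exons is not given for that setting.

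Of the 59 exons higher with activators, 45 had a length that is a multiple of 3 (76.3%), against 46.7% of those tested and 65.3% of the 251 tested exons between 10 and 90 PSI in DMSO. A total of 58 were matched to a GENCODE exon and 54 were coding. Leaving out the genes that the study tested by RT-PCR, 56 were higher.

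**Figure D3:**
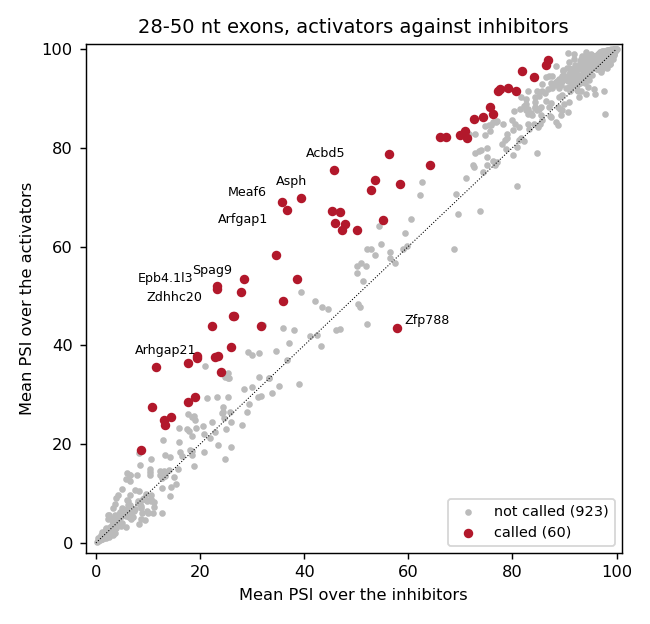
Mean PSI over the 10 inhibitors (x axis) against mean PSI over the 17 activators (y axis) for the 983 exons of 28-50 nt tested, with the 60 called exons in red and the line of equal PSI dotted. All called exons but that of Zfp788 lie above the line, and the labelled exons farthest from it are those of Meaf6, Arfgap1, Asph and Acbd5.

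The largest difference was in the 30 nt exon of Meaf6 (chr4:124784761-124784790, mm9, plus strand), which encodes a subunit of histone acetyltransferase complexes. Its PSI in DMSO was 60.1, 56 and 68.6. The activators ranged from 53.6 to 83.4, with a median of 68.1, and the 7 inhibitors that passed the filters from 16.6 to 53.9, with a median of 34.7. Only the activator BTB13120, at 53.6, and the inhibitor SPB00858, at 53.9, came within the range of the other class, and the DMSO libraries lay within that of the activators. The means were 69.1 ± 7.41 and 35.8 ± 15.5 (SD over compounds), a difference of 2.12 in log2 odds of inclusion (SE 0.29, limma adjusted p = 4.6e-06). The gene itself had a lower level with the 4 HDAC inhibitors, by log2 RPKM ratios of -1.48 to -1.04, and the part of that level in the PSI was not tested.

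The 30 nt exon of Arfgap1 (chr2:180713117-180713146, plus strand), a GTPase-activating protein for ARF1 at the Golgi, was at 53.5, 59.7 and 59.8 PSI in DMSO. With activators it ranged from 56.6 to 79.4 (median 67.1) and with inhibitors from 13 to 55.1 (median 39.5). The classes did not overlap, and the DMSO libraries stood at their border. The difference in log2 odds was 1.91 (SE 0.24, limma adjusted p = 6.8e-07). T5985871 gave the lowest value, with the Arfgap1 transcript level itself lower there by a log2 ratio of -1.17.

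The 33 nt exon of Acbd5 (chr2:22936188-22936220, plus strand), which encodes a peroxisomal protein that binds acyl-CoA, was at 70.8, 70.7 and 72 PSI in DMSO. It ranged from 63.3 to 87.2 with activators (median 74.4) and from 14.8 to 71.3 with inhibitors (median 49.2). The inhibitors were spread widely, and SPB00858 lay within the range of the activators. The difference in log2 odds was 2.01 (SE 0.31, limma adjusted p = 2.2e-05), and without the 5 inhibitors named above the difference was 16.9 PSI in place of 29.7 (limma adjusted p = 0.051).

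In the 36 nt exon of Epb4.1l3 (chr17:69623222-69623257, plus strand), whose product links the membrane to spectrin and actin, the DMSO libraries were at 36, 33.9 and 35 PSI. Activators ranged from 42.1 to 63 (median 51.4) and inhibitors from 10.8 to 32 (median 24.9). Every activator lay above and every inhibitor below the DMSO libraries. The difference in log2 odds was 1.89 (SE 0.17, limma adjusted p = 5.2e-09).

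Exons of 2 genes that the study had used to choose compounds, Zdhhc20 and Asph, were among the largest as well, so their class differences are not independent evidence. The 36 nt exon of Zdhhc20 (chr14:58468982-58469017, minus strand), a palmitoyltransferase, had 51.5 ± 9.71 PSI with activators and 23.3 ± 6.49 with 9 inhibitors. The 45 nt exon of Asph (chr4:9564806-9564850, minus strand), an aspartyl hydroxylase of the endoplasmic reticulum, had 69.9 ± 6.09 and 39.4 ± 10.1. Which exon of each gene RT-PCR had amplified was not matched here. The limma adjusted p values were 4.7e-07 for Zdhhc20 and 6.1e-08 for Asph.

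The 39 nt exon of Spag9 (chr11:93974577-93974615, plus strand), a scaffold of JNK signalling that binds motor proteins, averaged 53.4 ± 15 PSI with activators and 28.5 ± 7.41 with inhibitors (difference in log2 odds 1.59, SE 0.28, limma adjusted p = 0.00023). Its classes overlapped, since SEW06315 was at 31.1 and the ChemBridge compound at 44. The 30 nt exon of Arhgap21 (chr2:20804827-20804856, minus strand), a GTPase-activating protein for small GTPases, averaged 35.7 ± 10.1 and 11.6 ± 4.92 (2.17, SE 0.26, limma adjusted p = 2.3e-07). Its lowest activator was S02045 at 18.8 and its highest inhibitor JFD00822 at 20.1. Of all compounds, A-443654 had the highest value for Arhgap21, at 55.2, against 19.5, 24.5 and 26.1 in DMSO.

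The single exon lower with activators was the 31 nt exon of Zfp788 (chr7:48890050-48890080, plus strand), a zinc finger gene. It was at 50.4, 54.7 and 43.2 PSI in DMSO, ranged from 27.6 to 58.8 over the 12 activators that passed and from 50.1 to 74.8 over 9 inhibitors, and the classes overlapped. The means were 43.5 ± 9.51 and 57.9 ± 7.09, a difference in log2 odds of -0.86 (SE 0.25, limma adjusted p = 0.026). The call was lost without the 5 inhibitors named above (-13.2 in place of -14.5 PSI, limma adjusted p = 0.27). It was also lost without the minimum of reads of the less frequent kind, a filter added after the data were seen (limma adjusted p = 0.056).

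**Figure D4:**
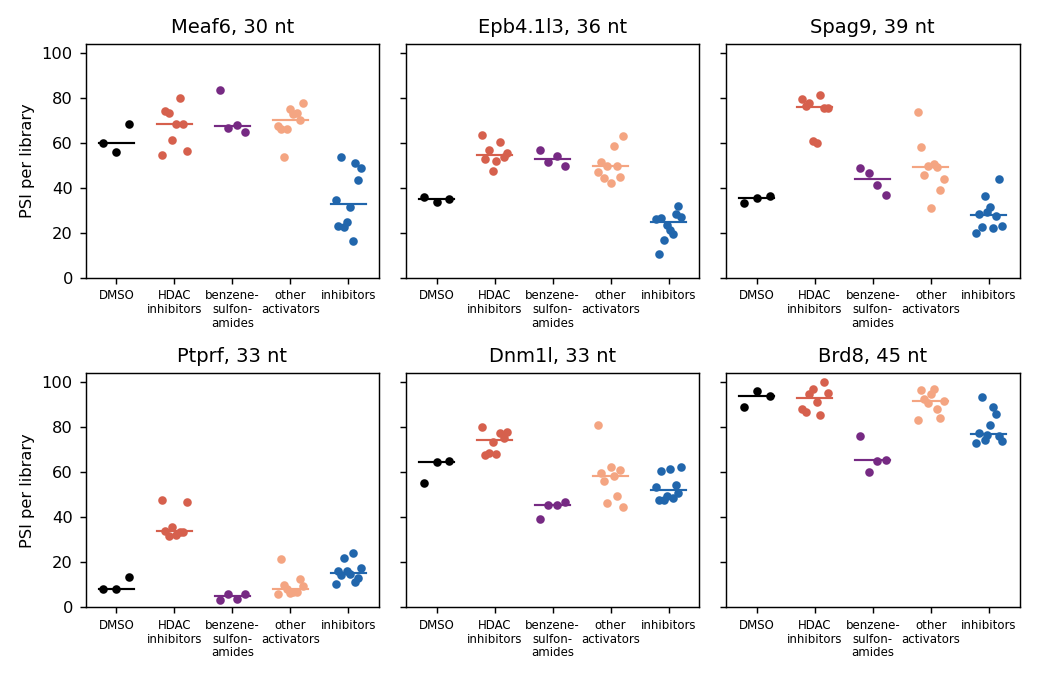
PSI (y axis) of 6 named exons in each library, grouped as DMSO, HDAC inhibitors, benzenesulfonamides, other activators and inhibitors, with the group median as a line. Epb4.1l3 separates activators from inhibitors on either side of DMSO, Spag9 and Ptprf are highest with the HDAC inhibitors, and Dnm1l and Brd8 are lowest with the benzenesulfonamides.

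The called exons were also sorted by lists of host genes. Among hosts of the cytoskeleton and cell adhesion, 9 of 56 exons tested were higher with activators and 0 lower, with a median difference of 1.59 PSI, against 59 of 983 and a median of 0.818 for all short exons. They included the 36 nt exon of Epb4.1l1 (78.8 against 56.2 PSI), the 30 nt exon of Ppfia1 (37.9 against 19.4), which encodes a liprin, and the 37 nt exon of Add1 (64.8 against 45.9), which encodes an adducin that caps actin. Among hosts of membrane trafficking, 2 of 51 were higher (Arfgap1 and Exoc7, a subunit of the exocyst), with a median of 1.25. Among RNA-binding and splicing proteins, 1 of 56 was higher (Srrm1, a splicing coactivator, at 72.6 against 58.5), with a median of 0.475. Hosts of chromatin and transcription had 1 higher (Zfp94) and 1 lower (Zfp788) of 47, with a median of 0.716. Kinase and small GTPase hosts had 2 higher of 64 (Arhgap21 and the kinase Mark3), with a median of 0.845. In the genes tested by RT-PCR, 3 of 10 were higher, with a median of 2.74.

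Only the HDAC inhibitors had replicate libraries, and with them the short exons were tested against DMSO library by library. Of 747 exons that passed in all 11 libraries, 44 were called with Vorinostat in limma (5.89%, against 2.33% of all 13805 cassette exons tested), 37 of them increased. CI-994 had 42 called (5.62%, against 2.16%), 34 increased. BRD4884 had 28 (3.75%, against 0.971%), 26 increased, and BRD6688 had 18 (2.41%, against 0.782%), 17 increased. The shares over all cassette exons were not matched for the DMSO level. Median changes over the 747 exons were 0.507, 0.435, 0.397 and 0.423 PSI for Vorinostat, CI-994, BRD4884 and BRD6688, respectively. The counts depended on the libraries used, and without DMSO A 17 were called for BRD4884. Leaving out a library of a compound leaves it with 1, which lowers the power of the test. Fewer calls there do not show that a particular library carried them.

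Spag9 was called increased with all 4 compounds. It was at 33.5, 35.7 and 36.4 PSI in DMSO, 79.4 and 75.6 with Vorinostat, 81.2 and 75.7 with CI-994, 76.3 and 77.6 with BRD4884, and 61 and 60.1 with BRD6688. The BRD6688 libraries stood below the other 6 and above DMSO. The rises in log2 odds were 2.67, 2.75, 2.62 and 1.5 (SE 0.19 each, limma adjusted p at most 1.5e-05).

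The 33 nt exon of Ptprf (chr4:117890617-117890649, minus strand), encoding a receptor tyrosine phosphatase of neuronal adhesion, rose from 7.88, 8.22 and 13.2 PSI in DMSO to 47.7 and 46.8 with Vorinostat, 33.6 and 33.5 with CI-994, 33.7 and 31.5 with BRD4884, and 35.7 and 32.2 with BRD6688. Vorinostat stood above the other 3 compounds, whose 6 libraries lay between 31.5 and 35.7. In the class contrast Ptprf was at 14.9 ± 13.5 with activators and 15.8 ± 4.34 with inhibitors, and did not pass (limma adjusted p = 0.4). The benzenesulfonamides had 3.3 to 5.77 PSI, below DMSO.

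The 48 nt exon of Dclk2 (chr3:86634746-86634793, minus strand), a kinase that binds microtubules, was at 17.7, 21.9 and 26 in DMSO and between 40.8 and 55.8 in the 8 libraries of the HDAC inhibitors. Its rises were 26.8, 33.1, 22.7 and 19.3 PSI with Vorinostat, CI-994, BRD6688 and BRD4884, all called in limma, and that with BRD4884 was lost without BRD4884 B (limma adjusted p = 0.05). The highest Dclk2 value of all libraries was with BTB12021, at 63.6. Zdhhc20 rose by 33.9, 35.5 and 25.8 PSI with Vorinostat, CI-994 and BRD4884, while the rise of 16.8 with BRD6688 did not pass (limma adjusted p = 0.16). Its call with BRD4884 was lost without DMSO A, DMSO C or BRD4884 A. That call was also lost with PSI on an arcsine scale (limma adjusted p = 0.072) and with replicate letters as a block (limma adjusted p = 0.06).

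Fewer exons fell, with 7 called decreased for Vorinostat, 8 for CI-994, 1 for BRD6688 and 2 for BRD4884. Shares by direction over all cassette exons are not given for this test, so the excess of rises is not read as particular to short exons. The single one called decreased with at least 3 of these compounds was the 36 nt exon of Mbnl1 (chr3:60425345-60425380, plus strand), a splicing regulator that is itself alternatively spliced. It was at 94.7, 90.1 and 89.1 PSI in DMSO and 72.6 and 68.9 with CI-994. The change with CI-994 was -20.6 PSI (log2 odds -2.17, SE 0.34, limma adjusted p = 0.00011). Changes of -13 with BRD6688 and -12.7 with BRD4884 passed (limma adjusted p = 0.01 and 0.011). Each was lost when DMSO A or a library of that compound was left out. Both were also lost with PSI on an arcsine scale (limma adjusted p = 0.096 and 0.089). With Vorinostat the change was -7.88 (limma adjusted p = 0.057).

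BRD4884 and BRD6688 were both used at 10 µM, and no short exon differed between them in limma (0 of 747 called, against 0% of all 13805 cassette exons). At an unadjusted limma p below 0.05 there were 41 of 747, close to the share that this threshold passes by chance. A single exon was called when no minimum of reads was asked for. Spag9 differed most among the named exons, by 1.12 in log2 odds (95% interval 0.69 to 1.55, limma adjusted p = 0.061). For Ptprf the difference was -0.09 (-0.61 to 0.43). The test does not show that both compounds act alike, and the comparison was added after values had been seen.

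The exons called most often across compounds showed several patterns. Epb4.1l3 and the 45 nt exon of Myo18a (chr11:77668180-77668224, plus strand), an unconventional myosin, were each called increased with 14 compounds. The compounds differed, since Epb4.1l3 was also called decreased with 5 and Myo18a with 0. Myo18a was at 36.3, 36.2 and 35 PSI in DMSO, and it reached 87.2 with the inhibitor T5985871 and 64.6 with the inhibitor AW00693. Its activators ranged from 27.9 to 70.4 and its inhibitors from 28.8 to 87.2, and the class difference did not pass the test (47.8 ± 13.3 against 50.8 ± 17.8, limma adjusted p = 0.73). Of the 14 compounds that raised Myo18a, 8 were activators and 6 inhibitors. The 2 CI-994 libraries lay far apart, at 55.8 and 85, while both Vorinostat libraries, at 31.9 and 37.9, were near DMSO.

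The 36 nt exon of Fat1 (chr8:46135196-46135231, plus strand), an atypical cadherin, was at 30.9, 27.5 and 28.9 PSI in DMSO and was called increased with 13 compounds, all activators, and decreased with 0. Its activators ranged from 29.1 to 58.8 (median 46.3) and its inhibitors from 20.4 to 31.3 (median 27.1). Of the inhibitors, 5 lay within or just above the range of the DMSO libraries and 5, at 20.4 to 23.4, below every one of them, but none was called. The class difference was 1.26 in log2 odds (SE 0.19, limma adjusted p = 1.7e-05). The Fat1 gene itself was higher with the HDAC inhibitors, by log2 RPKM ratios of 0.95 to 1.80, and the part of that level in the PSI was not tested. The 39 nt exon of Ndrg3 (chr2:156755668-156755706, minus strand), of the family downstream of N-Myc, was called increased with 13 compounds and decreased with 3, from 34, 32.2 and 33.2 in DMSO to a range of 34.4 to 51.9 with activators and 18.8 to 38.3 with inhibitors. Spag9 was called increased with 12 compounds and decreased with 4.

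**Figure D5:**
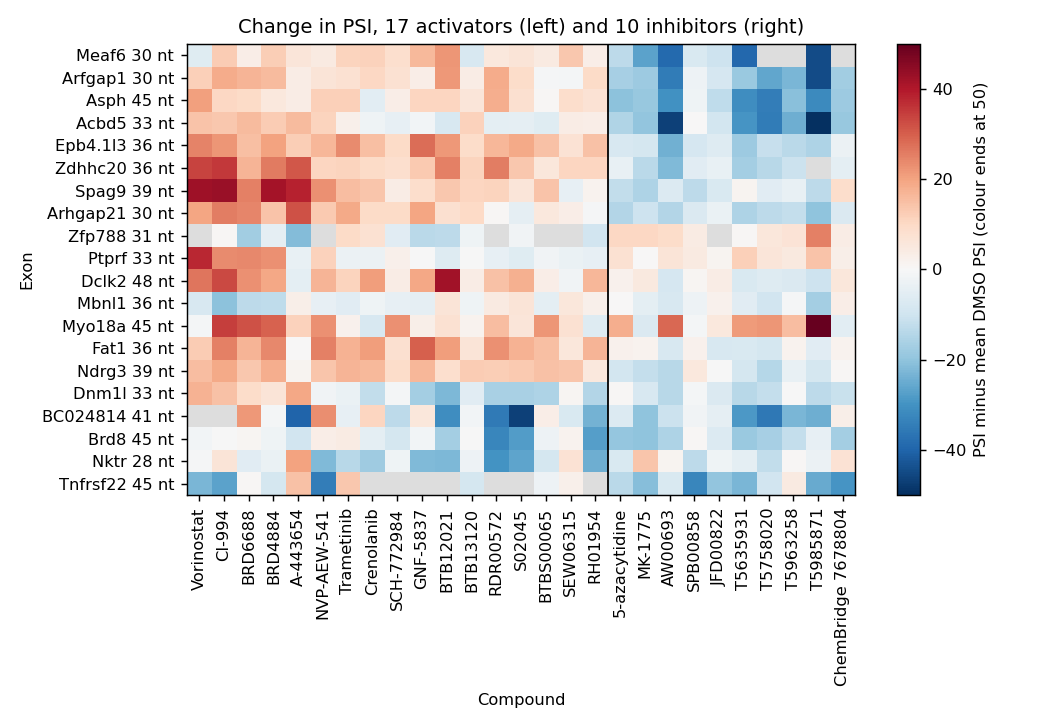
Change in PSI against mean DMSO (colour, ending at 50) for 20 named exons (rows) and the 27 compounds (columns), activators left of the line and inhibitors right, grey where a value did not pass the filters. The top exons run from red to blue across the line, Spag9, Ptprf and Dclk2 are red with the HDAC inhibitors, and Dnm1l, BC024814, Brd8 and Nktr are blue with the benzenesulfonamides.

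Of the 5 exons most often called decreased, 4 (in Dnm1l, BC024814, Brd8 and Nktr) were called with all 4 benzenesulfonamides and also with inhibitors. The 33 nt exon of Dnm1l (chr16:16318538-16318570, minus strand), the dynamin-related GTPase of mitochondrial fission, was at 55.3, 64.7 and 64.8 PSI in DMSO. It was at 39.3 with BTB12021, 45.2 with S02045, 45.4 with RDR00572 and 46.9 with RH01954. All 4 lay below every DMSO library, as did the activators GNF-5837 (44.6), BTBS00065 (46.1) and Crenolanib (49.2) and inhibitors such as T5635931 (47.5) and AW00693 (47.7). Vorinostat gave 80.3 and 77.9 and A-443654 80.8. Dnm1l was called decreased with 12 compounds and increased with 3, and the class difference did not pass (58.2 ± 13.2 against 53.6 ± 5.84, limma adjusted p = 0.43).

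The 45 nt exon of Brd8, a bromodomain subunit of an acetyltransferase complex, was at 89, 96.1 and 93.9 PSI in DMSO, and at 76.1 with BTB12021, 65.6 with RH01954, 65 with S02045 and 60.2 with RDR00572. It was called decreased with 11 compounds, and inhibitors ranged from 72.9 to 93.6. Over the classes it did not pass (limma adjusted p = 0.17), but without the benzenesulfonamides activators were 11.4 PSI higher than inhibitors (limma adjusted p = 0.0046). The 41 nt exon of BC024814 (chr16:8482220-8482260, plus strand), named Mettl22 in GENCODE and encoding a methyltransferase-like protein, was at 61.9, 63.6 and 70.6 in DMSO, on 50 to 150 reads. It was lowest with S02045 (18.8), A-443654 (25.1), T5758020 (29.5) and RDR00572 (30.2), and was called decreased with 11 compounds.

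The 28 nt exon of Nktr (chr9:121639115-121639142, plus strand), a cyclophilin-related protein, is among the shortest considered here. It was at 47.5, 63 and 51.8 PSI in DMSO, and the benzenesulfonamides lowered it to 24.4 (RDR00572), 27.9 (S02045), 29.6 (RH01954) and 31.8 (BTB12021). It was called decreased with 10 compounds, 8 of them activators, and increased with A-443654 (74.1) and MK-1775 (67.9). The 45 nt exon of Tnfrsf22 (chr7:150825150-150825194, minus strand), a decoy receptor, was called decreased with 9 compounds, on few reads in DMSO (31 to 62) and with 2 DMSO libraries at 59 and 66.2.

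The largest rises with RDR00572 were in Zfp94, Ndrg2 and Unc13a. With this compound the 39 nt exon of Zfp94 rose by 30.6 PSI to 82.3 (95% Wilson interval 71 to 89.8, counting error only), that of Ndrg2 (42 nt) by 29.4 to 55.2 (42.3 to 68.4), and the 30 nt exon of Unc13a (chr8:74190540-74190569), whose product primes synaptic vesicles, by 28.9 to 54.2 (49.3 to 58.7). The other benzenesulfonamides gave 62.8 (BTB12021), 57 (S02045) and 41 (RH01954) for Unc13a, all above DMSO at 29.4, 23.2 and 23.3. Without the 4 benzenesulfonamides its class difference was 9.78 PSI, under the minimum for a call.

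The largest falls with RDR00572 were in Sez6, Inpp4a and Nrd1. Sez6 (39 nt) fell by 48 PSI to 13.9, on 3.05 inclusion reads (Wilson 4.75 to 33.3). It was measured in only 2 DMSO libraries, at 54.5 and 69.1, and RH01954, at 83.1, was called increased. Inpp4a (33 nt), a phosphoinositide phosphatase, fell by 44.8 to 23.2 (14.4 to 33.5), and was at 19.3, 20.4 and 34.3 with S02045, RH01954 and BTB12021. Its DMSO libraries were far apart, at 88.7, 63.4 and 52.0, all above the 4 benzenesulfonamides. Nrd1 (48 nt), which encodes the protease nardilysin, fell by 37.6 to 59.1 (46.9 to 69.4), from 100, 89.9 and 100 in DMSO, and the other 3 had 60.4, 71.9 and 80.4. With every other compound Nrd1 was at 93.7 or more.

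With Trametinib, the 33 nt exon of Ubr4 (chr4:138988397-138988429), a ubiquitin ligase, rose by 30.2 PSI to 54.2 (48.2 to 60.3), Epb4.1l3 by 23.8 to 58.7 (55.7 to 61.7), and Prune2 (48 nt) by 20.4 to 62.5. Ubr4 was also high with Crenolanib (52.7) and GNF-5837 (62.2), against 25.7, 23.4 and 22.8 in DMSO, and it was at 33.2 with the ERK inhibitor SCH-772984. Falls with Trametinib were smaller, at 15.5 in Ndrg2, 13.8 in Nktr and 13.3 in Lrp8, the last a receptor of reelin. Each of these calls was lost at a posterior above 0.99, and that of Nktr also without DMSO B (-9.34 PSI). Ndrg2 had 40 to 69 reads in the DMSO libraries.

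With the inhibitors AW00693 and T5985871, falls were largest in Acbd5, by 46.5 PSI to 24.7 (20.9 to 28.9) and by 56.4 to 14.8 (10.5 to 19.8). Meaf6 fell by 38.7 and 44.9, and Arfgap1 by 44.7 with T5985871. Ankrd45 fell by 42.3 with AW00693 to 24.3 (13.7 to 43.2), with DMSO libraries far apart at 76.2, 48.3 and 75.2 on 35 to 71 reads. Both also raised exons. Myo18a rose by 28.8 and 51.4, the 37 nt exon of Spata5, an AAA ATPase, by 17.9 and 28, Iqce by 14 with AW00693 and Zfp788 by 25.3 with T5985871. The call of Iqce was lost at a posterior above 0.99. With CI-994, the rises in Spag9 and Zdhhc20 above were among the 3 largest, and falls were largest in Tnfrsf22 (-26.9), B3galt1 (-21) and Mbnl1 (-20.6).

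In genes that the study tested by RT-PCR, 28 exons had 28 to 50 nt, 26 were measured and only 7 lay between 10 and 90 PSI in DMSO. Most of the others were at or near 100 in every library, as the exons of 32 nt in Ergic3, 50 nt in Mgrn1 and 45 nt in Snx14. The 45 nt exon of Mgrn1 was at 25.6, 16.8 and 17.1 in DMSO and its class difference did not pass in limma (23.2 ± 6.89 against 19.2 ± 4.61, adjusted p = 0.35). A second Asph exon, of 48 nt, was at 31.1 ± 8.6 with activators and 28.5 ± 3.75 with inhibitors (limma adjusted p = 0.74), while the 45 nt exon of the same gene is among the 8 with the largest differences. The 39 nt exon of Lphn2 (65.4 ± 7.95 against 55.1 ± 6.54, limma adjusted p = 0.021) was called with a difference of 10.3 PSI, near the minimum. The call was lost without the HDAC inhibitors (10.1 PSI, limma adjusted p = 0.05), without their replicates A (9.49 PSI) and without the 5 inhibitors named above (8.91 PSI, limma adjusted p = 0.26).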

How the data were processed

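PolyA+ RNA-seq was analysed from 34 libraries of N2A cells. The deposited PSI percent values and the quality strings with counts of inclusion and exclusion reads were made by the authors with vast-tools on mm9, after a correction for mappability. Gene levels are the RPKM that the authors deposited, computed with Salmon and merged over replicates, and ratios used a pseudocount of 0.5. The Salmon version is given as 0.10.2 with the data, whereas the paper names another version. Deposited columns of the authors' own comparisons (calls of change, fold changes and p-values) were not used. Samples were grouped by the treatment labels, and the class, target and dose of each compound came from the paper.

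Exons were kept where the third score was SOK, OK or LOW, and for calls also where the balance score passed. Read-based calls used at least 2 passing DMSO libraries, a posterior probability above 0.95 and 10 PSI. For each exon, 2000 draws from beta distributions were made per treatment, split evenly over its passing libraries. These calls, like the Wilson intervals, cover counting error only. Tests used limma 3.58.1 in R 4.3.3 on log2 odds with a pseudocount of 0.5 reads, with a trend on the counting variance, two-sided, and Benjamini-Hochberg adjustment over all cassette exons tested. An exon was called at an adjusted p below 0.05 and a change of at least 10 PSI. The class contrast needed 12 activators and 7 inhibitors, and the HDAC fit all 11 libraries. A mean of at least 2 reads of the less frequent kind per library was asked for, a filter added after the data were seen. Both procedures were tested on simulated data. Python 3.11.15, numpy 2.4.6, pandas 2.3.3 and scipy 1.17.1 were used. Replicate letters were checked for pairing by correlating the differences between libraries A and B across groups, and no pair of groups was over 0.1.

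Members and gene lists were chosen with earlier results of these data known. The exons named are the 8 largest class differences in each direction among those called, up to 5 in each direction called with at least 3 HDAC inhibitors, the 5 most often called increased and decreased, the 3 largest called changes in each direction with CI-994, RDR00572, Trametinib, AW00693 and T5985871, and those in genes tested by RT-PCR. Other exons named beside the gene lists were chosen after their values were seen, and some exons that meet these rules are not reported here. Exon positions are those of the files, and sequences are from GENCODE vM21 transcripts (GRCm38) without conversion of coordinates. Alternatives comprised other thresholds, filters and scales, a replicate block, and leaving out libraries or groups of compounds.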

Additional observations from a re-analysis of the deposited data

Results flagged for a closer look

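Among the inhibitors, T5985871 stood far from the others in the 31 nt exon of Zfp788, at 74.8 PSI, while the other 8 that passed the filters lay between 50.1 and 60. It was singled out by its gap to the nearest value, relative to the range of the group. A total of 9 such groups were examined, and chance gives about 1 in 20. The value rests on 82.2 inclusion and 27.8 exclusion reads (95% Wilson interval 65.7 to 81.8). Its cause was not tested.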

How the results depend on the processing

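With 15 PSI in place of 10, 394 increased and 199 decreased pairs of exon and compound were called for activators and 42 and 325 for inhibitors, and at a posterior above 0.99 73 were increased for inhibitors. On the arcsine scale 9 exons were called for BRD6688 and 16 for BRD4884. The difference between BRD4884 and BRD6688 had 1 call with no minimum of reads of the less frequent kind. The class contrast had 188 calls with no minimum change and 17 without AW00693, T5635931, T5758020, T5963258 and T5985871, where differences also shrank, as in Zfp94 from 21.8 to 7.98 PSI, Ubr4 from 18.8 to 12.7 and Dclk2 from 17.9 to 12.2. Leaving out 1 library at a time gave 690 to 765 increased and 404 to 474 decreased pairs for activators, 115 to 135 and 638 to 696 for inhibitors, 26 to 45 calls for Vorinostat, 28 to 41 for CI-994, 10 to 18 for BRD6688, 14 to 27 for BRD4884, 0 to 1 for BRD4884 minus BRD6688, and 54 to 59 for the class contrast. Of the values of named exons under each alternative, 0 changed direction, and 14 lost a call in the HDAC fit, 11 in the class contrast and 8 by reads. Causes were not tested. Shares over all cassette exons are not given for these settings or for the replicate block below. The counts are thus not read as particular to short exons. With 1 library per compound and a median of 142 to 312 reads per exon, changes under 10 PSI were not called.

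Deviations of libraries with the same letter did not move together, so the check showed no pairing by letter. It covered 51689 exons without the minimum of reads of the less frequent kind, and DMSO C was not in it. Counting error can hide a shared deviation in such exons, so the check cannot exclude pairing. With the replicate block, 29 exons were called for Vorinostat, 30 for CI-994, 13 for BRD6688 and 19 for BRD4884.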

Other observations

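Further short exons higher with activators belong to genes of several functions. The 45 nt exon of Sh3pxd2a, a scaffold of invadopodia, averaged 58.3 ± 13 PSI with activators and 34.6 ± 8.4 with inhibitors (limma adjusted p = 0.0012). The 36 nt exon of Elmo2, which promotes Rac activation, averaged 50.8 ± 8.67 and 27.8 ± 10.9 (limma adjusted p = 0.00013). In Kcnab2, a subunit of potassium channels, the 42 nt exon averaged 66.9 ± 9.97 and 46.9 ± 7.77 (limma adjusted p = 0.00033). Some exons near full inclusion were also called. The 47 nt exon of Napb, a SNAP protein of vesicle fusion, was at 97.8 ± 0.822 with activators and 86.8 ± 9.6 with inhibitors (limma adjusted p = 1.2e-06), and the 50 nt exon of Atg3, an enzyme of autophagy, at 94.3 ± 2.51 and 84.2 ± 4.94 (limma adjusted p = 3.5e-05). These exons were chosen after their values were seen.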
